A study of Mus musculus with 24 samples.

Results

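The genes described here set the pace of the G1 phase, and the question was how their mRNA differed between mouse ovarian cancer cells given cisplatin, a degrader of the SWI/SNF ATPases, both or neither. They are the D-type cyclins Ccnd1, Ccnd2 and Ccnd3, the E-type cyclins Ccne1 and Ccne2, the kinases Cdk4 and Cdk6, and the inhibitors Cdkn1b, Cdkn1c and Cdkn2b. These 10 genes were taken by symbol from the 25229 genes of the deposited count table. The rule itself reads no measured value, but the genes were chosen with earlier results of these data known. The cells were of the line ID8 P53 KO (ID8 Trp53-/-), so the loss of p53 is shared by every group, controls included. A culture received the vehicle DMSO, 2.5 μM AU-15330 (AU15330 in the labels), 750 nM cisplatin, or the combination of both at these doses, for 6 days. There were 4 such groups with 6 libraries in each, which carry replicate numbers 1 to 6. The labels do not say whether these were separate cultures, so p-values measure only the spread between these libraries. As a PROTAC, AU-15330 sends SMARCA4 and SMARCA2 to the proteasome for breakdown, and cisplatin is a platinum drug that crosslinks DNA.

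Cells pass from G1 into S phase once the retinoblastoma protein is phosphorylated. D-type cyclins bound to CDK4 or CDK6 begin this step, E-type cyclins bound to CDK2 complete it, and the E2F factors that are then released switch on genes of DNA replication, Ccne1 and Ccne2 among them. Inhibitors of the INK4 type, such as p15 from Cdkn2b, bind CDK4 and CDK6, whereas p27 from Cdkn1b and p57 from Cdkn1c bind whole cyclin and kinase complexes. A cell that has left the cycle for good, as in senescence, can keep high levels of some of these cyclins, so an mRNA level alone is not a measure of division.

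The libraries held 17592588 to 25260009 counted reads each. Levels are given as CPM, the counts of a gene scaled to the size of its library with TMM factors, and 3 counts in a library correspond to 0.120 to 0.186 CPM. This floor covers counting error only. In bulk RNA, fewer cells that express a gene and less RNA per cell cannot be told apart. Of 8 markers of ovarian surface epithelium and mesothelium, Krt8, Krt18, Krt19, Msln, Wt1 and Upk3b had counts in all 24 libraries, whereas Pax8 had at most 15 counts and was at 0 in 7 libraries. All 7 markers that could be tested were lower with AU-15330 than with DMSO, and the summed level of the 8 fell from between 3512 and 5308 CPM with DMSO to between 1018 and 1150 CPM with AU-15330. These falls were uneven, with Krt19 at −7.99, Upk3b at −6.50 and Krt7 at −5.12 log2 units, Krt18 at −2.41 and Msln at −2.16, but Krt8 at −0.47 and Wt1 at −0.46. In an AU-15330 library Upk3b had 4 to 23 counts and Krt7 0 to 2, under the floor, so the fall of Krt7 is imprecise. With cisplatin 5 of the 7 were higher than with DMSO and 0 lower (Upk3b by 2.12 and Krt7 by 1.89 log2 units). The summed level of the 8 was 4174 to 4851 CPM with cisplatin and 1223 to 1403 CPM with the combination. The part of these shifts in the results for the drugs was not tested. Of 5 leukocyte markers only Cd68 exceeded 5 counts in a library. It was 1.56 log2 units higher with AU-15330 (adjusted p = 3.16e-05), while Ptprc, Cd3e, Adgre1 and Itgam were at or near 0. The summed level of the 5 was 6.46 to 19 CPM with DMSO, 16.8 to 53.1 CPM with AU-15330, 6.85 to 13.2 CPM with cisplatin and 24 to 42.3 CPM with the combination. The 4 endothelial markers summed to 2.87 to 4.28 CPM with DMSO, 0.261 to 0.763 CPM with AU-15330, 8.51 to 12.8 CPM with cisplatin and 0.483 to 1.2 CPM with the combination, and of them only Pecam1 exceeded 9 counts.

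Of the 10 genes, 8 passed the filter on low counts and were tested among the 12941 genes that passed it. Cdkn1c and Cdkn2b did not. Between cisplatin and DMSO, 5 of the 8 were higher and 1 was lower at an adjusted p under 0.05, where 26% of all tested genes were higher and 25.7% lower. With AU-15330 against DMSO, 3 were higher and 1 lower, beside 36.2% and 37.2% of all genes. The combination against cisplatin gave 4 higher and 1 lower (35.4% and 32.7% of all genes), and against AU-15330 it gave 5 higher and 1 lower (22.2% and 19.5%). Against DMSO, the combination gave 5 higher and 0 lower (36.8% and 36.5%), and AU-15330 against cisplatin gave 3 of each (35.8% and 37.3%). With changes this common across the transcriptome, the number of calls says little, and the sizes of the differences are the more informative values. The median log2 difference of the 8 genes was 0.64 with cisplatin, 0.32 with AU-15330 and 0.90 with the combination, each against DMSO, where the medians of all tested genes were −0.004, −0.003 and −0.001. The median size of the difference regardless of sign was 0.65, 0.47 and 0.90 for the 8 genes and 0.28, 0.54 and 0.53 for all tested genes, so with AU-15330 it was no larger in the 8 genes than in the rest. Scaling by total counts instead changed the split over all genes for cisplatin against DMSO from 50.2% to 61.1% of calls being higher.

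**Figure D1:**
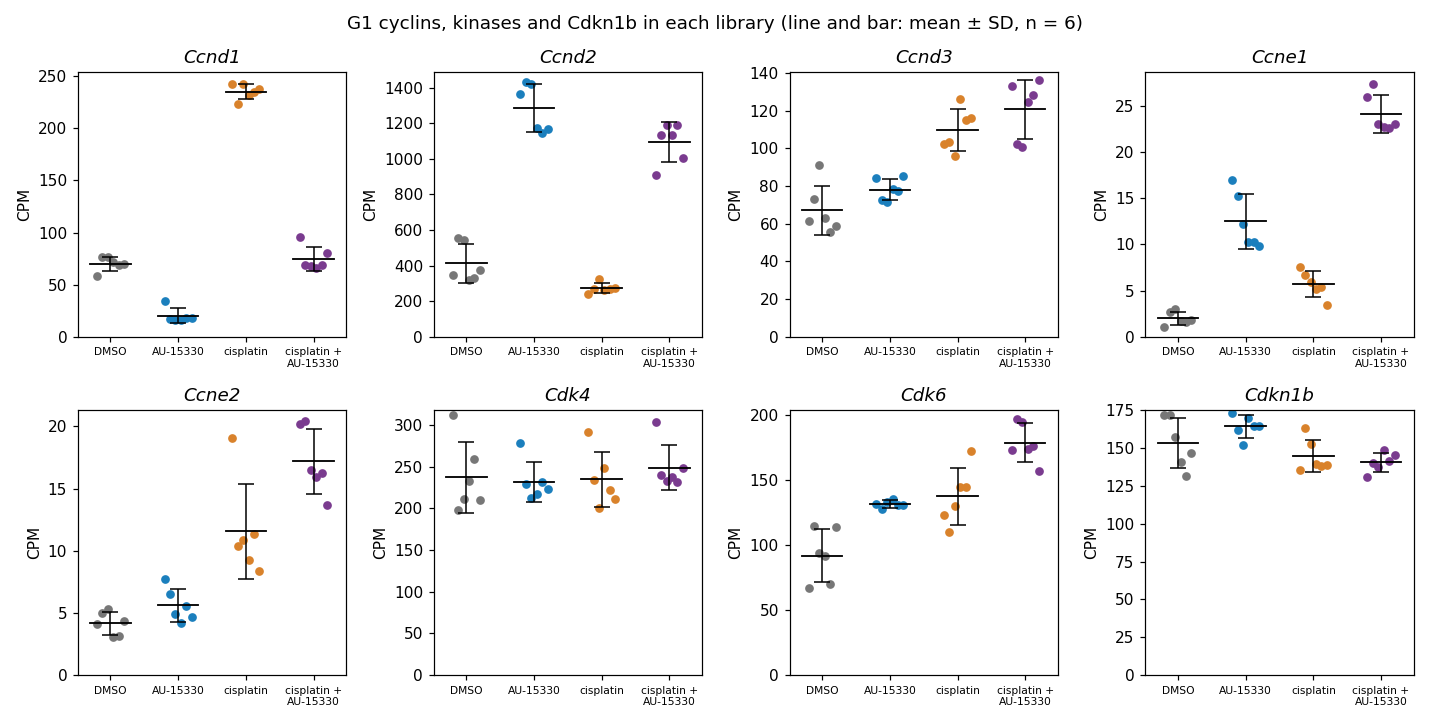
CPM (vertical axis, from 0) of the 8 tested genes in each of the 24 libraries, by treatment, with points for libraries in order of replicate number, and the mean and SD of each group as a line and bar. Ccnd1 is highest with cisplatin, and the mean of Ccnd2 is highest with AU-15330, where its range overlaps that of the combination. The means of Ccne1 and Ccne2 are highest with the combination, and the ranges of Cdk4 overlap in all 4 groups.

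Ccnd1 and Ccnd2 moved in opposite directions with each drug. Ccnd1 encodes cyclin D1, a common target of growth factor signals (chromosome 7, 144929931 to 144939925, minus strand, GRCm38 here and below). With DMSO it lay between 58.2 and 76.8 CPM (median 70.5), and with cisplatin between 223 and 243 CPM (median 236). The cisplatin libraries were all above the DMSO libraries, and Ccnd1 rose 3.35-fold (log2 1.75 ± 0.14 SE, adjusted p = 6.69e-11). With AU-15330 it lay between 15.9 and 34.4 CPM (median 17.6). Every AU-15330 library was below every DMSO library, and replicate 1 was well above the other five. Ccnd1 fell by 1.81 log2 units, or 3.5-fold (SE 0.14, adjusted p = 1.10e-11), and by 2.03 without replicate 1 of AU-15330.

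With both drugs Ccnd1 lay between 66.3 and 95.3 CPM (median 68.7), a range that overlapped that of DMSO. The combination did not differ detectably from DMSO (log2 0.09, 95% confidence interval −0.19 to 0.36, adjusted p = 0.56), and the sign turned to −0.10 without replicate 1 of each group. It differed from each single drug without overlap, being 3.15-fold lower than with cisplatin alone (log2 −1.66 ± 0.14 SE, adjusted p = 4.04e-11) and 3.72-fold higher than with AU-15330 alone (log2 1.90 ± 0.14 SE, adjusted p = 1.62e-10). AU-15330 alone and cisplatin alone were 11.7-fold apart, with Ccnd1 the lower under AU-15330 (log2 −3.55 ± 0.15 SE, adjusted p = 3.03e-17). In descending order Ccnd1 was thus at cisplatin, then the combination and DMSO, which overlapped, then AU-15330.

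Ccnd2, for cyclin D2, had the most counts of the 10 genes (chromosome 6, 127125162 to 127152193, minus strand). With DMSO it ran from 321 to 553 CPM (median 361), and replicates 2 and 3 were the high ones. With cisplatin it ran from 239 to 324 CPM (median 269). These ranges met only at their edges, and Ccnd2 was 1.51-fold lower with cisplatin (log2 −0.59 ± 0.12 SE, adjusted p = 0.000234). With AU-15330 it ran from 1146 to 1429 CPM (median 1269), with replicates 1 to 3 above replicates 4 to 6. All of these libraries lay above the DMSO libraries, and Ccnd2 rose 3.11-fold (log2 1.64 ± 0.13 SE, adjusted p = 7.28e-12). Set against cisplatin, AU-15330 gave a 4.7-fold higher level of Ccnd2 (adjusted p = 1.77e-14).

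With the combination Ccnd2 ran from 907 to 1189 CPM (median 1135), above every library without AU-15330. It was 4.00-fold higher than with cisplatin alone (log2 2.00 ± 0.13 SE, adjusted p = 2.06e-13) and 2.65-fold higher than with DMSO (adjusted p = 1.34e-10). Against AU-15330 alone, the ranges overlapped and the difference was not called (log2 −0.23, 95% confidence interval −0.48 to 0.02, adjusted p = 0.13), although a fit of these groups alone gave an adjusted p of 0.024.

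Ccnd3, for cyclin D3, rose with cisplatin and showed a smaller difference with AU-15330 (chromosome 17, 47505051 to 47599691, plus strand). Its range was 55.8 to 91.0 CPM (median 62.1) with DMSO and 95.8 to 126 CPM (median 109) with cisplatin, without overlap, and it rose 1.63-fold (log2 0.71 ± 0.10 SE, adjusted p = 2.81e-06). With AU-15330 it was 71.4 to 85.2 CPM (median 77.8), inside the range of DMSO. This difference was not called (log2 0.22, 95% confidence interval 0.01 to 0.43, adjusted p = 0.059), and the value ran from 0.15 without replicate 1 of each group to 0.33 without replicate 3 of DMSO. It was called in the latter fit (adjusted p = 0.0016), without replicate 2 of DMSO (log2 0.25, adjusted p = 0.042), in lane 2 alone (log2 0.24, adjusted p = 0.040) and under scaling by total counts (log2 0.35, adjusted p = 0.0027). With the combination Ccnd3 was 100.7 to 136 CPM (median 127), 1.55-fold above AU-15330 alone (adjusted p = 2.36e-05) and 1.80-fold above DMSO (adjusted p = 5.17e-08), both without overlap. AU-15330 was 1.4-fold lower than cisplatin (log2 −0.49, adjusted p = 0.000137). The ranges of the combination and cisplatin overlapped (log2 0.14, 95% confidence interval −0.07 to 0.35, adjusted p = 0.23).

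The make-up of the D-type cyclin mRNA therefore differed by treatment. Levels of different genes can be compared only per length, so CPM were divided by the length in kb of the longest annotated transcript with a consensus coding sequence, which is 3740 bases for Ccnd1, 6330 for Ccnd2 and 2113 for Ccnd3. In DMSO, Ccnd2 made up 55.9% ± 3.5 (SD, n = 6) of the sum of the 3 genes and Ccnd1 16.6% ± 2.3. With cisplatin the order changed to Ccnd1 at 39.8% ± 1.7, Ccnd3 at 32.9% ± 2.8 and Ccnd2 at 27.3% ± 2.4. With AU-15330, Ccnd2 made up 82.6% ± 2.2 and Ccnd1 2.18% ± 0.67. With the combination the shares were 69.0% ± 4.7 for Ccnd2, 23% ± 3.4 for Ccnd3 and 8.04% ± 1.6 for Ccnd1. Cyclin D2 mRNA was thus the largest share in 3 of the 4 groups, and cyclin D1 mRNA only with cisplatin alone. The summed level was 116 ± 24 CPM per kb with DMSO, 158 ± 5.6 with cisplatin, 245 ± 21 with AU-15330 and 250 ± 12 with the combination. With the union of all exons as the length, a choice made after the data were seen, Ccnd1 still led with cisplatin (54.6%) and Ccnd2 led elsewhere, but Ccnd2 (31.7%) then exceeded Ccnd3 (13.7%) with cisplatin.

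**Figure D2:**
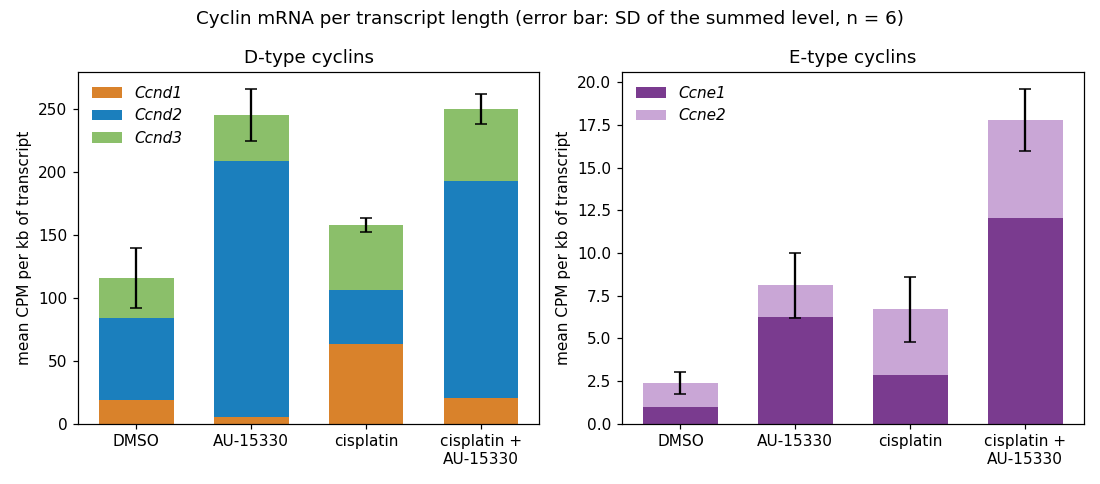
Mean CPM per kb of transcript (vertical axis, from 0) of the D-type cyclins (left) and E-type cyclins (right) in the 4 groups, stacked by gene, with the SD of the summed level over 6 libraries as the error bar. Ccnd2 fills most of the D-type bar with AU-15330 and the combination, and the E-type bar is tallest with the combination, at 17.8 CPM per kb.

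Ccne1, for cyclin E1, had the largest change of the 8 tested genes with AU-15330 and with the combination, each against DMSO, and each drug raised it. It lies on chromosome 7 (38097984 to 38107534, minus strand) and no other annotated gene shares its exons. It was low in DMSO, at 1.11 to 3.04 CPM (median 1.78), which is 18 to 63 counts in a library. Cisplatin libraries held 3.42 to 7.57 CPM (median 5.68), all above DMSO, and Ccne1 rose 2.81-fold (log2 1.49 ± 0.21 SE, adjusted p = 1.24e-06). AU-15330 libraries held 9.86 to 17 CPM (median 11.2), all above cisplatin, and Ccne1 was 6.17-fold higher than in DMSO (log2 2.63 ± 0.20 SE, adjusted p = 7.87e-12). With both drugs it reached 22.6 to 27.4 CPM (median 23.1), above every other library of the experiment. The combination was 11.9-fold above DMSO (log2 3.58 ± 0.20 SE, adjusted p = 1.65e-14), 4.25-fold above cisplatin (log2 2.09 ± 0.18 SE, adjusted p = 9.67e-11) and 1.93-fold above AU-15330 (log2 0.95 ± 0.17 SE, adjusted p = 7.31e-05). The 4 groups did not overlap anywhere in this order.

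Ccne2, for cyclin E2, differed more with cisplatin than with AU-15330 (chromosome 4, 11191351 to 11204779, plus strand). Its range was 3.09 to 5.31 CPM (median 4.26) with DMSO and 8.36 to 19.1 CPM (median 10.6) with cisplatin, where replicate 1 was far above the rest. The groups did not overlap, and Ccne2 rose 2.76-fold with cisplatin (log2 1.47 ± 0.19 SE, adjusted p = 4.14e-07). With AU-15330 it was 4.15 to 7.74 CPM (median 5.24), overlapping DMSO, and the difference narrowly missed the threshold (log2 0.42, 95% confidence interval 0.02 to 0.82, adjusted p = 0.052). It passed in the fit with the replicate number as a block (log2 0.39, adjusted p = 0.016), by DESeq2 (adjusted p = 0.043), and when replicate 2 or 3 of DMSO or replicate 3, 4 or 6 of AU-15330 was left out (log2 0.46 to 0.51, adjusted p 0.029 to 0.0497). The value fell to 0.29, and was not called, without replicate 1 of each group. The combination held 13.7 to 20.4 CPM (median 16.4). It was 4.11-fold above DMSO (adjusted p = 3.20e-10), 3.07-fold above AU-15330 (adjusted p = 1.07e-07) and, with overlapping ranges, 1.49-fold above cisplatin (log2 0.57 ± 0.17 SE, adjusted p = 0.0052).

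Per length, Ccne1 made up 41.2% ± 6.6 of the E-type cyclin mRNA in DMSO and 42.8% ± 4.6 with cisplatin, but 77.0% ± 2.0 with AU-15330 and 68.0% ± 2.0 with the combination (SD, n = 6). Ccne2 was thus the larger part without AU-15330 and Ccne1 with it, and the order was the same with the union of exons as the length. AU-15330 and cisplatin compared with each other show the same contrast, since Ccne1 was 2.20-fold higher and Ccne2 2.06-fold lower with AU-15330 (adjusted p = 2.92e-06 and 1.39e-05).

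The sequence before the start of transcription is shown for Ccne1, which differed most between the combination and DMSO, and for Cdk4, which was not called in any comparison. Both are taken from RefSeq (GRCm38.p6) and cut where an annotated exon begins. RefSeq promoters were at hand for 6 of the 10 genes, and Ccnd1, Ccnd2, Ccne2 and Cdkn1c were not among them. The Ccne1 stretch is chr7:38107535-38107740 on the minus strand and the Cdk4 stretch is chr10:127063285-127063533 on the plus strand, both written 5′ to 3′ on the strand of the gene. Capitals mark GGGCGG, a word bound by Sp1 factors, and CACGTG, the E-box bound by MYC and its partners, in either orientation.
Ccne1: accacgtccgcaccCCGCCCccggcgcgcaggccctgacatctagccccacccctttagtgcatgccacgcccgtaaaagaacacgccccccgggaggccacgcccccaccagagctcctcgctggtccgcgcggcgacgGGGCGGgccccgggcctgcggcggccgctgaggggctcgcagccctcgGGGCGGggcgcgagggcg
Cdk4: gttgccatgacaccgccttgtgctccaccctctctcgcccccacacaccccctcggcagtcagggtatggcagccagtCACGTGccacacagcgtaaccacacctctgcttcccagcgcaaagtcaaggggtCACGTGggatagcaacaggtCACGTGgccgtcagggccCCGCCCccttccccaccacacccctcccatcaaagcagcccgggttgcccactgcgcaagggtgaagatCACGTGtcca
In the 250 bases before the start, Ccne1 held GGGCGG 4 times, 3 of them in the stretch shown, a number reached by 4.09% of 32851 RefSeq promoters of that length. Cdk4 held CACGTG 4 times, reached by 0.0213% of these promoters, and GGGCGG once. The E2F words TTTCCCGC, TTTGGCGC, TTTCGCGC and TTTGCCGC, of which at least 1 was in 1.86% of promoters, and the AP-1 word TGANTCA, which was in 6.75%, were in neither window on either strand. Only these exact words were searched, so other forms of an E2F or AP-1 site are not covered. These are matches of letters and not measured sites of binding.

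Of the D-type cyclin kinases, Cdk6 rose with each drug and Cdk4 was not called in any comparison. Cdk6 (chromosome 5, 3341485 to 3531008, plus strand) lay between 67.1 and 115 CPM (median 92.5) with DMSO and between 110 and 172 CPM (median 137) with cisplatin. The ranges overlapped slightly, and Cdk6 rose 1.5-fold (log2 0.58 ± 0.11 SE, adjusted p = 0.000123). With AU-15330 the 6 libraries lay close together, between 127 and 136 CPM (median 131), above all DMSO libraries, and Cdk6 rose 1.43-fold (log2 0.52 ± 0.11 SE, adjusted p = 0.000214). With both drugs it lay between 157 and 197 CPM (median 175). That was 1.94-fold above DMSO (log2 0.96 ± 0.11 SE, adjusted p = 3.03e-08), 1.36-fold above AU-15330 (adjusted p = 0.0027) and 1.30-fold above cisplatin (adjusted p = 0.0044), the last with overlap. AU-15330 and cisplatin alone did not differ detectably (log2 −0.06, 95% confidence interval −0.29 to 0.17, adjusted p = 0.63).

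Cdk4 (chromosome 10, 127063534 to 127067920, plus strand) lay between 198 and 312 CPM with DMSO (median 222), 201 and 292 CPM with cisplatin (median 228), 212 and 279 CPM with AU-15330 (median 226), and 232 and 304 CPM with the combination (median 239). The groups overlapped throughout, and in each of them replicate 1 was the highest library. Its log2 difference from DMSO was −0.02 with cisplatin (95% confidence interval −0.23 to 0.20), −0.03 with AU-15330 (−0.25 to 0.18) and 0.07 with the combination (−0.15 to 0.28), and the first of these signs turned under scaling by total counts, as did the second. The third turned to −0.001 without replicate 1 of the combination. The combination differed by 0.09 from cisplatin (−0.13 to 0.30) and by 0.10 from AU-15330 (−0.11 to 0.32), and AU-15330 by −0.02 from cisplatin (−0.23 to 0.20). These intervals are unpaired. By replicate number, Cdk4 was higher with the combination than with AU-15330 in 6 of 6, and the replicate block did not call this difference. Per length, Cdk4 mRNA was the main kinase of the pair in every group, and Cdk6 made up 6.70% ± 2.2 of the sum with DMSO, 9.58% ± 2.1 with cisplatin, 9.23% ± 0.84 with AU-15330 and 11.4% ± 1.5 with the combination (SD, n = 6).

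Among the inhibitors, Cdkn1b was the only one with substantial counts. Cdkn1b encodes p27 (chromosome 6, 134920401 to 134925513, plus strand). Its medians were 152 CPM with DMSO (131 to 172), 139 CPM with cisplatin (136 to 163), 164 CPM with AU-15330 (152 to 173) and 141 CPM with the combination (131 to 148). These groups lay close together, and only the combination and AU-15330 did not overlap. The combination was 1.17-fold lower than AU-15330 (log2 −0.22 ± 0.07 SE, adjusted p = 0.0082). AU-15330 was 1.13-fold higher than cisplatin (adjusted p = 0.015), a call that was lost without replicate 1 of each group (log2 0.14, adjusted p = 0.056) and in lane 1 alone (log2 0.14, adjusted p = 0.071). Against DMSO the difference was −0.08 log2 units with cisplatin (95% confidence interval −0.22 to 0.05), 0.10 with AU-15330 (−0.04 to 0.23) and −0.12 with the combination (−0.26 to 0.01), none of them called. The combination differed from cisplatin by −0.04 (−0.18 to 0.09). The difference between the combination and DMSO was called by DESeq2 (log2 −0.14, adjusted p = 0.043), with no filter on low counts (log2 −0.18, adjusted p = 0.031) and without replicate 5 of DMSO (log2 −0.17, adjusted p = 0.019), against −0.08 without replicate 1 of DMSO, and its sign turned to 0.02 under scaling by total counts.

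Cdkn2b, for the INK4 inhibitor p15 (chromosome 4, 89306299 to 89311039, minus strand), had 0 counts in all 24 libraries, which allows up to 0.120 to 0.186 CPM in a library. Its neighbour Cdkn2a, for p16 and p19ARF (89274471 to 89294653), also had 0 counts in all 24. On one side of this pair, Mtap (89137122 to 89181081), an enzyme of methionine salvage, had 6383 to 23906 counts in a library. On the other side, Dmrta1 (89679436 to 89694772) had at most 7 counts. Mtap and Dmrta1 were chosen for their place beside Cdkn2b. Cdkn1c, for p57 (chromosome 7, 143458339 to 143461050, minus strand), had 0 counts in the DMSO and cisplatin libraries, at most 1 count in a library with AU-15330, and at most 2 with the combination, all under the floor of 3 counts.

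**Figure D3:**
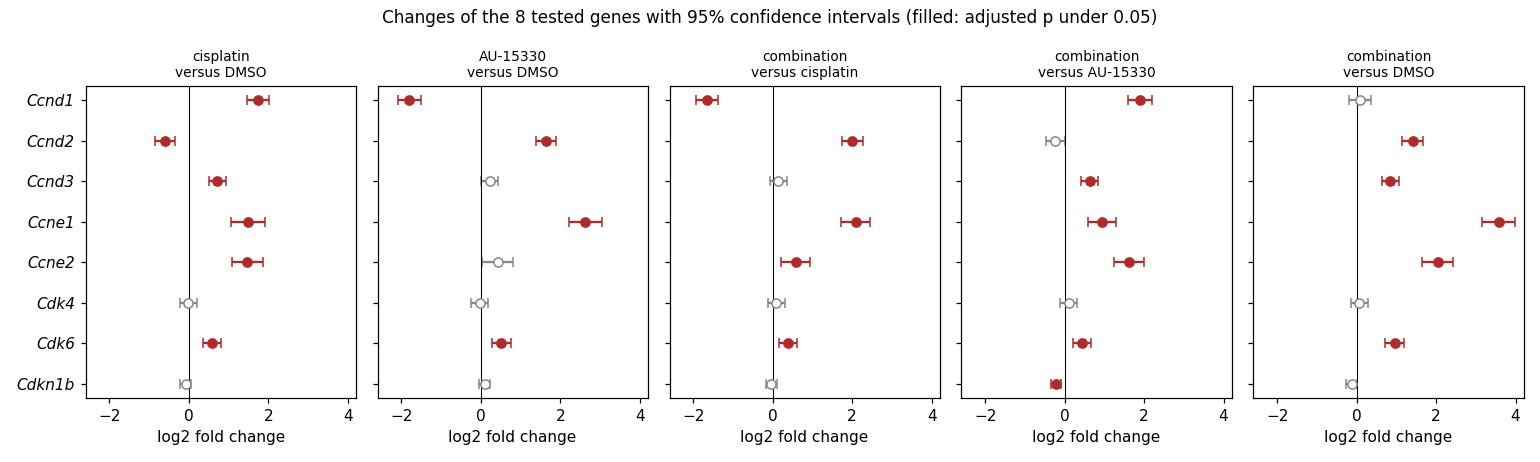
Log2 fold changes (horizontal axis) with 95% confidence intervals of the 8 tested genes in 5 comparisons, filled in red where the adjusted p was under 0.05. Ccnd1 lies right of 0 with cisplatin and left of 0 with AU-15330 and with the combination against cisplatin, Ccnd2 does the reverse in these 3 panels, and Cdk4 lies near 0 in all 5 panels.

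Whether AU-15330 acted differently in the presence of cisplatin was tested with the interaction of the drugs, which compares the change from DMSO to AU-15330 with that from cisplatin to the combination. By edgeR 0 of the 8 genes were called, 1 had an unadjusted p under 0.05, and DESeq2 also called 0, whereas 17.9% of all tested genes had a positive and 15.8% a negative interaction. For Ccnd2 the rise with AU-15330 was 1.64 log2 units without cisplatin and 2.00 with it (difference 0.36, 95% confidence interval 0.01 to 0.72, unadjusted p = 0.046, adjusted p = 0.11). For Ccne1 the rises were 2.63 and 2.09 (difference −0.54, interval −1.09 to 0.01, adjusted p = 0.12), and for Ccnd1 the falls were 1.81 and 1.66 units (difference 0.15, interval −0.24 to 0.54, adjusted p = 0.58). Intervals of this width leave room for differences of up to 0.72 log2 units in Ccnd2 and 1.09 in Ccne1. Single libraries decided some of these calls. The difference for Ccnd1 was 0.38 (adjusted p = 0.017) without replicate 1 of AU-15330 and 0.33 (adjusted p = 0.0057) without replicate 1 of each group, but 0.07 without replicate 1 of the combination. That for Ccne1 was −0.72 without replicate 3 of DMSO (adjusted p = 0.042) and −0.65 without replicate 6 of cisplatin (adjusted p = 0.049), but −0.27, and not called, without replicate 1 of each group. That for Ccnd2 ran from 0.24 to 0.42 when libraries were left out and was not called in any of these fits. With the replicate number as a block, Ccnd2 was called (0.34, adjusted p = 0.0486). For Ccnd3, Ccne2, Cdk4, Cdk6 and Cdkn1b the differences lay between −0.14 and 0.15. Over all genes, scaling by total counts changed the share of positive interactions among those called from 53.0% to 41.7%.

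**Figure D4:**
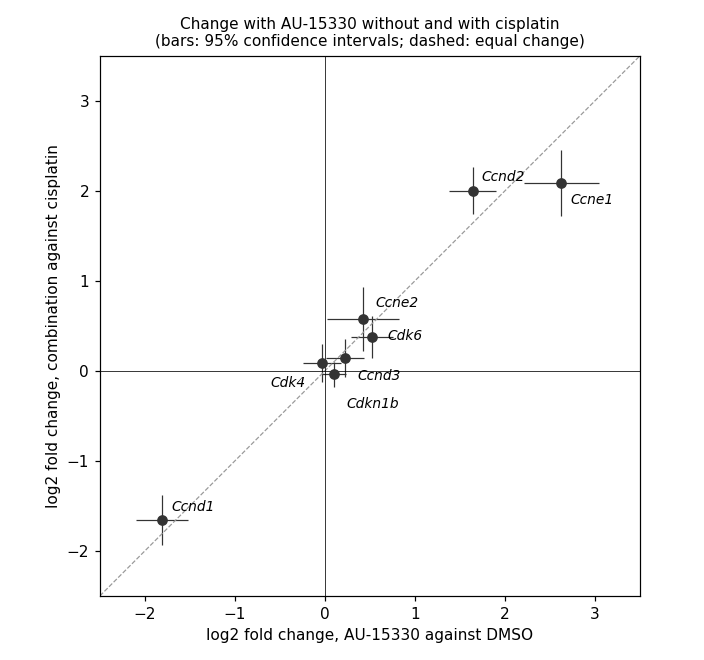
Log2 fold change with AU-15330 without cisplatin (horizontal axis, against DMSO) and with cisplatin (vertical axis, combination against cisplatin) for the 8 tested genes, with 95% confidence intervals and the line of equal change. Ccne1 (2.63 and 2.09) and Ccnd2 (1.64 and 2.00) lie at the upper right and Ccnd1 (−1.81 and −1.66) at the lower left.

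The genes around the G1 regulators were described as lists, by counts and medians. These counts stand beside the shares of all tested genes called in each direction, which were 26% higher and 25.7% lower with cisplatin, 36.2% and 37.2% with AU-15330, and 35.4% and 32.7% for the combination against cisplatin. No list was tested against these shares. Of 20 E2F target genes of the G1/S transition, all 20 were higher with cisplatin than with DMSO (median log2 1.87, highest Orc1 at 3.21 and Cdc45 at 2.76, which act in the assembly of replication complexes). With AU-15330, 17 were higher and 1 was lower (median 1.12, led by Gins2 at 1.97 and Mcm5 at 1.92, both parts of the replicative helicase). The combination against cisplatin gave 15 higher and 1 lower (median 0.68). Of 16 markers of G2 and M phase, all 16 were higher with cisplatin (median 2.65) and all 16 with AU-15330 (median 1.00), but 3 were higher and 13 not called when the combination was compared with cisplatin (median 0.24). When any single library of these groups was left out, an alternative chosen after seeing the data, this last count was 1 or 2. Replicate 1 of AU-15330 stood apart in these markers, with 163 CPM of Mki67 beside a group median of 81.4, 42.2 CPM of the mitotic kinase gene Plk1 beside 16.3, and 63.1 CPM of the mitotic cyclin gene Ccnb2 beside 23.9 (Plk1 and Ccnb2 were chosen after their values were seen). It was the highest library of its group for all 16 markers and all 20 E2F targets. With DMSO, replicates 2 and 3 were the high ones, with 83.2 and 75.3 CPM of Mki67 beside at most 42.2 in the others, and 1 of these 2 was the highest for each of the 16 markers (replicate 3 for 13 of them). Replicate 1 was also the highest library for 19 of the 20 E2F targets both with cisplatin and with the combination, and for 13 with DMSO. Without replicate 1 of AU-15330, 14 of the 16 were higher with AU-15330 than with DMSO (median 0.80) and 16 of the 20 E2F targets (median 0.99). Without replicate 2 or 3 of DMSO all 16 were higher (median 1.11 and 1.14), and leaving out any other single library gave 14 to 16 markers and 17 to 18 targets. Without replicate 1 of each group the counts were 14 (median 0.80) and 16 (median 1.03). With cisplatin all 20 and all 16 were higher in each such fit. Mki67, for the proliferation antigen Ki-67, showed this pattern, with 30.2 to 83.2 CPM in DMSO, 65.5 to 163 CPM with AU-15330, 250 to 375 CPM with cisplatin and 272 to 379 CPM with the combination. The median of all tested genes was −0.004 with cisplatin, −0.003 with AU-15330, and 0.04 for the combination against cisplatin.

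Upstream of E2F, the pocket proteins and E2F factors were mixed. Of the 13 genes, 8 were higher and 2 lower with cisplatin, led by the repressors E2f8 (log2 2.63) and E2f7 (2.52), and 8 were higher and 4 lower with AU-15330, again with E2f8 (1.70) and E2f7 (1.47) in front. The activator E2f1 rose by 0.95 with cisplatin and 1.21 with AU-15330. Rb1, the target of the D-type cyclin kinases, showed no detectable difference with cisplatin (−0.08, adjusted p = 0.53), and it fell by 1.08 log2 units with AU-15330 (adjusted p = 1.11e-09) and by 0.86 with the combination against cisplatin, where 6 genes of the list were higher and 2 lower.

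Of the other CDK inhibitors, Cdkn1a, for p21, an inhibitor that p53 activates after DNA damage, fell by 1.5 log2 units with cisplatin and by 3.94 with AU-15330 (adjusted p = 1.10e-07 and 2.90e-15). Cdkn2c, for the INK4 protein p18, rose by 0.51 with cisplatin and 0.97 with AU-15330. Cdkn2d, another INK4 gene, was not called with either drug (0.20 and 0.11), and was 1.06 higher with the combination than with cisplatin. Cdkn3, a phosphatase that acts on CDK2, was 2.45 higher with cisplatin. Over the 5 genes, of which Cdkn2a was untested, 2 were higher and 1 lower with cisplatin, 1 and 1 with AU-15330, and 2 and 1 with the combination against cisplatin.

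In the list of the CDK2 complex and its activators, 6 of 7 genes were tested, of which 2 were higher and 2 lower with cisplatin, led by Ccna2 (2.85), the S phase cyclin A2, and Mnat1 (−0.42), a subunit of the CDK-activating kinase. With AU-15330, 1 was higher and 3 lower, with Ccna2 at 1.00 and Mnat1 at −0.75. Cdk2 itself was not called with either drug (0.20 with cisplatin, adjusted p = 0.052, and −0.03 with AU-15330) and was 0.55 higher with the combination than with cisplatin (adjusted p = 3.34e-06), where 3 genes were higher and 1 lower.

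Of 11 genes for the turnover of G1 regulators, 4 were higher and 4 lower with cisplatin, 3 and 4 with AU-15330, and 4 and 5 with the combination against cisplatin. Usp2, a deubiquitinase that stabilises cyclin D1 protein, rose by 1.26 with cisplatin, by 3.91 with AU-15330 and by 2.44 with the combination against cisplatin. It had only 0 to 10 counts in a DMSO library, near the floor of 3 counts, so the first 2 of these values are imprecise. Cks2, a small subunit bound by cyclin-dependent kinases, rose by 0.99, 3.48 and 1.76 in the same comparisons. Skp2, the ubiquitin ligase subunit that recognises p27, rose by 0.78 with cisplatin and was not called with AU-15330 (−0.22, adjusted p = 0.054). Of 12 upstream regulators of D-type cyclins and inhibitors, 2 were higher and 6 lower with cisplatin, and 2 higher and 7 lower both with AU-15330 and with the combination against cisplatin. Mycn fell most (by 0.68, 3.49 and 3.24), followed by the early growth response factor Egr1 (by 0.57, 1.55 and 1.71). Myc, which activates Ccnd2 in many cells, fell by 1.38 with AU-15330 (adjusted p = 1.24e-09), by 0.34 with the combination against cisplatin (adjusted p = 0.026), and showed 0.01 with cisplatin (adjusted p = 0.96).

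**Figure D5:**
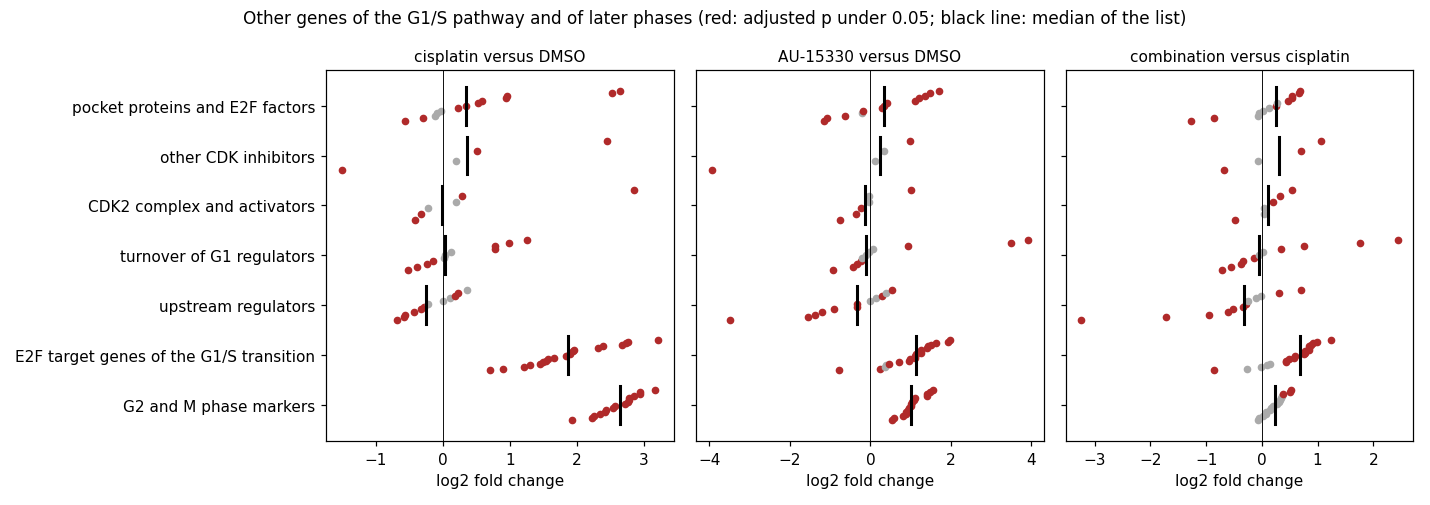
Log2 fold changes (horizontal axis, with its own scale in each panel) of the tested genes of 7 lists in 3 comparisons, in red where the adjusted p was under 0.05, with the median of each list as a black line. The medians of the E2F target and the G2 and M lists lie right of 0 with cisplatin (1.87 and 2.65) and with AU-15330 (1.12 and 1.00). They lie nearer to 0 when the combination is set against cisplatin. Single genes can lie left of 0, as the E2F target Rrm1 does with AU-15330 (−0.785).

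When the combination was compared with AU-15330, all 20 E2F target genes (median 1.32) and all 16 G2 and M markers (median 1.79) were higher, and Ccna2 (1.89), Myc (1.04), Skp2 (0.94), Cdk2 (0.78), Cdkn1a (1.77), Cdkn2c (0.24), Cdkn2d (1.15) and E2f1 (0.42) were each called as higher. Rb1 was not (0.14, adjusted p = 0.32). By list, 6 genes were higher and 1 lower of the 13 pocket proteins and E2F factors (Rbl2 at −0.50), 4 and 0 of the 4 other inhibitors tested, 3 and 0 of the 6 tested genes of the CDK2 list, 2 and 4 of the 11 turnover genes (lowest Cks2 at −0.74), and 1 and 3 of the 12 upstream regulators (lowest Egr1 at −0.74), where 22.2% of all tested genes were higher and 19.5% lower. Against DMSO, all 20 E2F targets (median 2.33) and all 16 G2 and M markers (median 2.76) were higher with the combination. Of all tested genes, 36.8% were higher and 36.5% lower in this comparison. The pocket protein and E2F list gave 8 higher and 4 lower of 13, and the other inhibitors 3 and 1 of 4. The CDK2 list gave 3 and 2 of 6, the turnover genes 4 and 5 of 11, and the upstream regulators 1 and 7 of 12.

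For the 4 tested genes whose group means ranged most widely, the genes with the nearest pattern over the 24 libraries were sought among 9559 genes with a mean log2 CPM of at least 3, by the root mean square difference of log2 CPM after each gene was centred on its own mean. For Ccnd1 these were Nes, for the intermediate filament nestin (0.26), Tnip3 (0.28) and Lgals9, for galectin-9 (0.37). For Ccnd2 they were Cav1, for caveolin-1 (0.20), Sema3a, for a secreted semaphorin (0.22), and Edem3 (0.22). Ccne2 was nearest to Hells, for a chromatin remodeller of dividing cells (0.24), Tubb6, for a tubulin (0.26), and Rpa2, for a subunit of the replication protein that binds single-stranded DNA (0.26). Ccne1 had less close neighbours, Arhgap11a (0.53), Brip1, for a DNA repair helicase (0.53), and Galnt12 (0.55). A minimum of 1 instead of 3 kept all 3 genes for Ccnd2 and 2 of 3 for each of the others. It put Mnd1 (0.42) first for Ccne1 and Suv39h2 (0.20) first for Ccne2, while Nes stayed first for Ccnd1.

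Exons of some of these genes lie opposite exons of a neighbour on the other strand, and the use of strand in counting is not given in the sources used here. Ccnd1 shares 1100 exonic bases with LTO1, which was 0.70 log2 units higher with AU-15330, where Ccnd1 was lower. Ccne2 shares 609 bases with Ints8, which was not called with cisplatin (0.14, adjusted p = 0.16) and was 0.57 higher with AU-15330 (adjusted p = 8.50e-07), beside 0.42 for Ccne2. With the combination Ints8 was higher than with cisplatin (0.22 beside 0.57 for Ccne2) and than with DMSO (0.365 beside 2.04). It was lower than with AU-15330 (−0.21 beside 1.62). Cdk4 shares 641 bases with Tspan31, which was lower than in DMSO with cisplatin (−0.29), AU-15330 (−0.24) and the combination (−0.30), where Cdk4 was not called. Ccnd2 shares 740 bases with the antisense genes Gm43126 and 9330179D12Rik, and Cdk6 shares 368 bases with Gm17590. Ccnd3 also has an annotated copy, Ccnd3-ps. Ccnd3 shares 361 bases with Bysl, which was higher with the combination than with AU-15330 (0.74, adjusted p = 3.20e-07, beside 0.63 for Ccnd3) and than with DMSO (0.32 beside 0.85), lower with AU-15330 than with DMSO (−0.42 beside 0.22), and not called with cisplatin (0.01 beside 0.71). Their share in the counts of the cyclins and of Cdk4 was not tested.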

How the data were processed

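Polyadenylated RNA of 24 libraries was read as single-end reads of a directional kit, and per the submitters' processing notes STAR 2.7.1a, the build mm10 and DESeq2 1.36.0 were used. The counting tool, strand setting and annotation are not given in the sources used here. The authors deposited raw read counts per gene symbol for 2 lanes of each library, and these lanes were summed, with 0 table columns left unused. The labels give cisplatin as 750 nM, while the study's text names another dose for these cells.

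Counts were scaled by TMM (factors 0.909 to 1.05), filtered with filterByExpr, and tested with the quasi-likelihood F test of edgeR 4.0.16 in R 4.3.3, in 1 fit of all 4 groups with 20 residual degrees of freedom. P-values were adjusted by the Benjamini-Hochberg method over 12941 genes, and the threshold was 0.05. Log2 CPM used a prior count of 2. Confidence intervals are at 95% and come from the standard error. The alternatives were DESeq2 1.42.0 and other scalings, filters, lanes, fold thresholds and subsets of libraries.

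Genes named were all 10 members, and of each list the defining genes and up to 2 called genes with the largest change, besides markers, neighbouring genes and those said to be chosen after their values were seen. The members, lists and rules were chosen with earlier results of these data known. For AU-15330 and the combination, the deviations of same-numbered libraries correlated in 6 of 6 numbers (0.101 to 0.483). The main fit did not use these numbers, so its p-values, standard errors and intervals are unpaired. They entered only as a block in an alternative fit. The block changed no call between AU-15330 and the combination. Lengths and positions are from GENCODE M21 (GRCm38), where each member matched 1 gene. No multiple-copy correction was made. 1 marker gene is not reported here.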

Additional observations from a re-analysis of the deposited data

Results flagged for a closer look

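In 32 sets of 6 libraries (8 genes in 4 groups), 4 held a library whose distance from the nearest other one took up an unusually large part of the whole range (Dixon's test at 95%), and chance alone would give about 5% of sets. All 4 were replicate 1. Ccnd1 with AU-15330 was 34.4 CPM in replicate 1 and at most 18.4 CPM in the others (0.867 of the range). Ccne2 with cisplatin was 19.1 CPM and at most 11.4 CPM (0.721). Cdk4 was 279 CPM in replicate 1 and at most 231 CPM in the others with AU-15330 (0.713), and 304 and at most 248 CPM with the combination (0.769).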

How the results depend on the processing

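The 8 tested genes were followed through 7 comparisons, 56 log2 values in all, and 1320 alternative values. Of these, 1264 kept direction and side of the threshold, 14 lost a call, 23 gained one and 19 changed sign, 0 of them for a called difference. A fold change above 1.5 as the thing tested lowered the number of genes called from 6 to 3 for cisplatin against DMSO, from 5 to 3 for the combination against cisplatin, and from 6 to 2 against AU-15330. For AU-15330 against DMSO it fell from 4 to 3 (Cdk6 lost), and against cisplatin from 6 to 4 (Ccnd3 and Cdkn1b lost). Total counts as the scaling raised the number called from 4 to 7 for AU-15330 against DMSO, adding Ccnd3, Ccne2 and Cdkn1b. The median of all genes shifted there by 0.129 log2 units (0.140 for the combination against DMSO). The added genes stood 0.22, 0.43 and 0.10 above that shift. These values restate the uncalled main values of 0.22, 0.42 and 0.10 and are no separate evidence. The interaction went from 0 to 1 called gene with the replicate block (Ccnd2) and with lane 2 alone (Ccne1). The causes of these changes were not tested. Leaving out libraries gave 6 genes for cisplatin against DMSO, 4 to 6 for AU-15330 against DMSO, 5 for the combination against cisplatin, 6 against AU-15330, 5 to 6 against DMSO, 5 to 6 for AU-15330 against cisplatin, and 0 to 1 for the interaction.

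Signs changed as follows. For Cdk4 the log2 difference was 0.061 with total counts, 0.001 in lane 1 and 0.017 in lane 2 for cisplatin against DMSO, 0.10 with total counts for AU-15330 against DMSO, and 0.036 for AU-15330 against cisplatin. For Cdkn1b total counts gave 0.024 for the combination against cisplatin and 0.019 against DMSO. Ccne2 had an interaction of −0.008 in lane 2. Without single libraries, Cdk4 ran from −0.09 to 0.10 for cisplatin and from −0.094 to 0.067 for AU-15330 against DMSO, from −0.001 to 0.17 for the combination against DMSO, and from −0.074 to 0.055 for AU-15330 against cisplatin, where Cdk6 ran from −0.12 to 0.013. For the combination against DMSO, Ccnd1 ran from −0.10, reached only without replicate 1 of each group, to 0.12. The replicate numbers correlated above 0.1 in every pair only for AU-15330 with the combination. In all 6 pairs of groups the mean correlation was higher for the same number (0.1002 to 0.212) than for other numbers (−0.040 to −0.019). Because deviations were taken from group means, the values for other numbers largely follow from those for the same number. They are thus no separate baseline, and the labels do not say what a number shares. Apart from the calls of Ccne2 (AU-15330 against DMSO) and Ccnd2 (interaction), the block changed no call. Cdkn1c and Cdkn2b stayed under the floor, and in a DMSO library Ccne1 had 18 to 63 counts and Ccne2 58 to 110. The effect of depth was not tested.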
